A study of Mus musculus with 6 samples.

Results

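The 9 genes described here encode transcription factors, or partners of transcription factors, that direct or restrain the commitment of mesenchymal cells to the osteoblast lineage: *Runx1*, *Runx2*, *Runx3*, *Cbfb*, *Sp7*, *Twist1*, *Twist2*, *Zfp521* and *Hey1*. They were chosen by name, and all 9 were found among the 17001 rows of the expression table. RNA was sequenced from cultured preosteoblasts, the precursors of bone-forming osteoblasts, taken from calvaria, the skull roof, of mice aged 3 days. Of the 6 libraries, 3 came from *Nell2* fx/fx mice (control) and 3 from Col1-cre;*Nell2* fx/fx mice (cKO). Both groups carried floxed *Nell2* alleles, and the cKO mice in addition carried Cre recombinase driven by a *Col1a1* promoter, so that deletion is limited to cells in which that promoter is active. The labels do not say whether the libraries of a group came from separate animals or cultures. The p-values therefore measure only the spread between these libraries, which may be partly technical. Y-linked genes, given below, differed between libraries of each group, so not all libraries of a group came from the same animals.

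RUNX2 is the master regulator of osteoblast commitment. Like RUNX1 and RUNX3, it binds DNA through its Runt domain, and the common partner CBFB strengthens this binding. SP7, also called osterix, acts downstream of RUNX2 and is needed for preosteoblasts to become bone-forming cells. TWIST1 and TWIST2 are basic helix-loop-helix proteins of early mesenchyme that hold RUNX2 in check, ZFP521 is a zinc finger protein that antagonizes RUNX2, and HEY1 is a repressor induced by Notch and BMP signaling.

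*Nell2*, the targeted gene, was measured in FPKM (fragments scaled to transcript length and library size): control replicates 1, 2 and 3 held 3.17, 2.59 and 1.88, and cKO replicates 1, 2 and 3 held 5.64, 1.61 and 5.74. The targeted gene thus did not show, in these values, the loss that the labels name, although a value for the whole gene does not separate the floxed part from the rest. The study behind these data reported the deletion in calvarial preosteoblasts from qRT-PCR and western blotting. Every direction below follows the labels. *Col1a1* and *Col1a2*, the type I collagen chains that mark this lineage, had FPKM values of 8052.61 to 8578.05 and 7484.07 to 8205.80 over the 6 libraries. The Y-linked genes *Ddx3y*, *Eif2s3y*, *Kdm5d* and *Uty* were expressed in control replicate 3 and in cKO replicates 1 and 3, and were at or near 0 in the other libraries. Sex thus differed between libraries within each group, and the groups were unbalanced in it. A fit with a covariate for these genes is among the alternatives at the end. A filter kept 11590 rows that reached 1 FPKM in 3 or more libraries. Between the groups, limma called 0 of them (0%) at an adjusted p under 0.05 and 1521 (13.1%) at an unadjusted p under 0.05. Of the 9 factors, 8 passed this filter, and *Hey1* did not.

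The RUNX genes are shown first by the DNA upstream of their start sites, because RUNX proteins can bind in the promoters of RUNX genes. A link between these bases and the differences between the groups was not tested. The 250 bases before each annotated start were read from RefSeq on GRCm38.p6, where 6 of the 9 factors were matched. The letters TGTGGT and TGCGGT, the core of the RUNX binding motif, were searched on both strands and are printed in capitals. The windows below lie at chr17:44814628-44814877 on the minus strand for *Runx2*, at chr4:135120395-135120644 on the plus strand for the upstream start of *Runx3*, and at chr16:92826075-92826324 on the minus strand for the upstream start of *Runx1*.
Runx2: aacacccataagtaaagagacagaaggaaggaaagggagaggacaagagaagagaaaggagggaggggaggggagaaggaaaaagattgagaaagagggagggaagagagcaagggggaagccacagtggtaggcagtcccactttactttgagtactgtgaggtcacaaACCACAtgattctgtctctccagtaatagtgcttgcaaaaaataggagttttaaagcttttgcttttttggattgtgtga
Runx3: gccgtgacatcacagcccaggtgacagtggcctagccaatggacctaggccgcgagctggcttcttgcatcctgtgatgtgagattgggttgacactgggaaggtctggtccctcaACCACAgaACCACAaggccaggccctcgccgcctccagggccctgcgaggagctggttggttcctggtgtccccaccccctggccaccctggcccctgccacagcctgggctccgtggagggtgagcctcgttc
Runx1: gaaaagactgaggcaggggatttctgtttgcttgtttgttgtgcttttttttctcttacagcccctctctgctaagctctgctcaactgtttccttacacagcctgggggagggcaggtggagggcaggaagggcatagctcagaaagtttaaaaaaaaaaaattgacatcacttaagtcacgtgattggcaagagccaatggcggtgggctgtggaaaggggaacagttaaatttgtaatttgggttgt
The *Runx2* window held 1 match, on the strand opposite to transcription and starting 80 bases before the start site, and it overlapped a CANNTG E-box. The *Runx3* window held 2 matches on the opposite strand, at 134 and 126 bases before the start. The *Runx1* window shown held 0, as did the windows of the second annotated starts of *Runx1* and *Runx3* and those of *Cbfb*, *Twist1* and *Twist2*. Among all 32851 such windows of 250 bases in RefSeq, 18.6% held at least 1 match, and a match of letters is not a measured binding site.

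The levels of the factors formed separate tiers, which is the comparison that FPKM, as a value per transcript length, allows between genes. *Twist1* (FPKM 67.89 to 89.79 over the 6 libraries) and *Cbfb* (66.21 to 80.66) were the most abundant, with means above those of 93.6% and 93.4% of all rows. Their ranges overlapped, so they could not be ordered. *Zfp521* (17.87 to 23.12), *Runx1* (12.58 to 18.93), *Sp7* (10.31 to 17.57), *Runx2* (10.98 to 14.71) and *Twist2* (7.42 to 13.88) followed, each overlapping with its neighbour in this order of mean FPKM. *Runx3* (1.73 to 2.89) lay below all of these in every library, and *Hey1* (0.08 to 0.90) lay lowest, with a mean above that of 26.5% of all rows. The libraries of both groups therefore held transcripts of the activators and of their antagonists side by side.

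**Figure D1:**
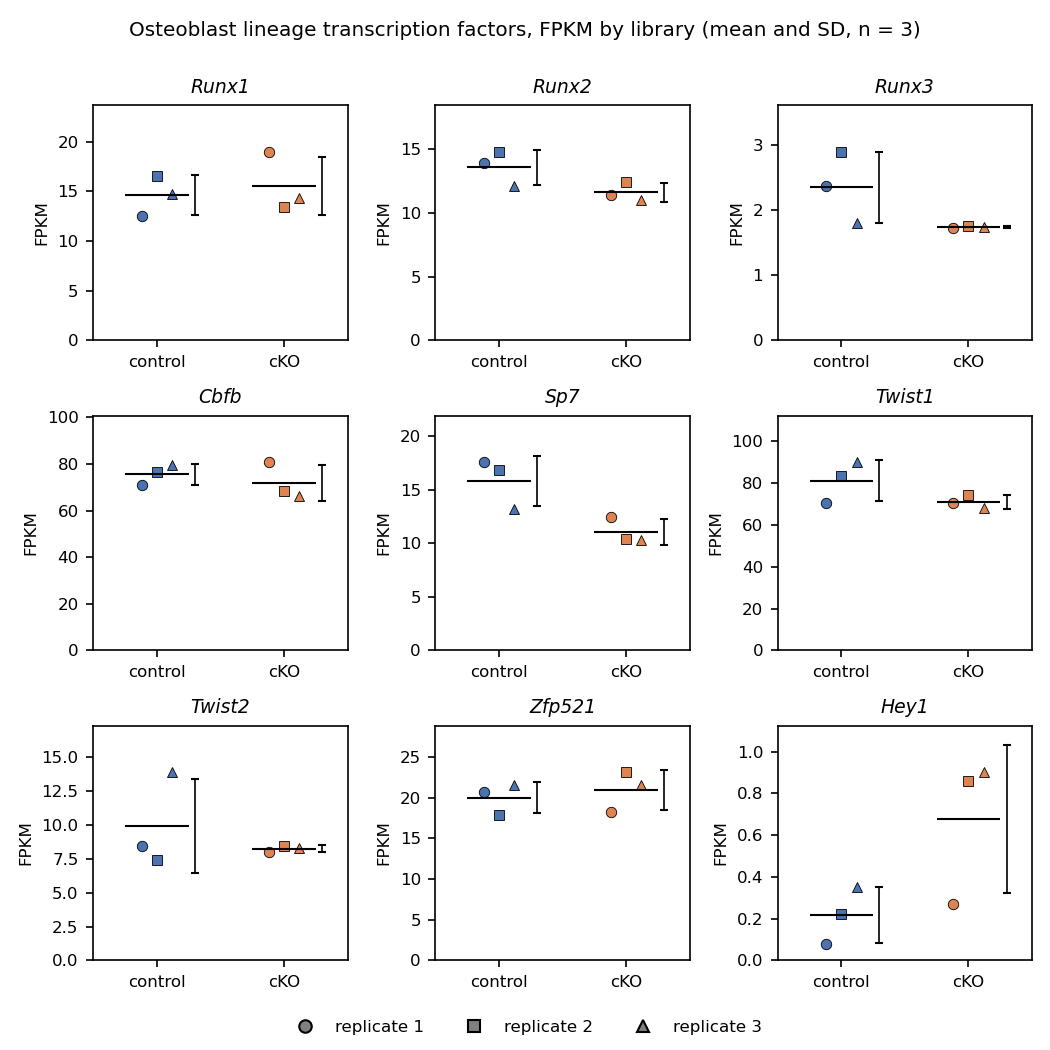
FPKM of the 9 transcription factors (y axes, from 0) in the 3 control and 3 cKO libraries, with 1 point per library, a line at the group mean and a bar for the SD beside it. The *Sp7* and *Runx3* values of the libraries labelled cKO all lie below the control values, as in 11.8% of tested rows. The groups overlap for the other 7 factors.

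*Sp7*, the factor that completes osteoblast commitment, showed the largest difference among the 8 tested factors. It lies on chromosome 15 from 102356606 to 102367182 on the minus strand (GRCm38, GENCODE M21), and no other annotated gene overlaps it. Control replicates 1, 2 and 3 held 17.57, 16.86 and 13.20 FPKM of *Sp7*. The cKO replicates, in the same order, held 12.44, 10.40 and 10.31. The groups did not overlap, although control replicate 3 lay nearer to cKO replicate 1 than to the other controls. The mean was 15.9 ± 2.35 (SD, n = 3) in control and 11.1 ± 1.20 (SD, n = 3) in cKO libraries, a ratio of 0.696. The difference on the log2(FPKM + 1) scale, where differences of weakly expressed genes come out too small, was -0.48 (standard error 0.12, 95% interval -0.77 to -0.19, adjusted p = 0.312 from limma over all tested rows). The unadjusted p was 0.00602, but no call remained after adjustment over all tested rows. It was the only one of the 8 factors with an unadjusted p under 0.05, in a table where 7.76% of rows passed that threshold with lower values and 5.37% with higher values in cKO libraries.

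*Runx2*, on chromosome 17 from 44495987 to 44814797 on the minus strand, differed less than *Sp7*. Its FPKM was 13.88, 14.71 and 12.06 in the control libraries and 11.38, 12.38 and 10.98 in the libraries labelled cKO. The lowest control value, in replicate 3, lay below the highest cKO value, in replicate 2, so the groups overlapped. The log2 difference was -0.21 (standard error 0.09, 95% interval -0.42 to 0.00, adjusted p = 0.381 from limma). The annotated genes *Runx2os1*, *Runx2os2*, *Runx2os3* and *Supt3* overlap *Runx2* on the opposite strand. The strand setting of the counting is not given, so reads of overlapping genes may not have been separated. Of these, *Supt3* has a row, with an FPKM of 7.89 to 10.61.

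*Runx3*, best known for its roles in T cells and in maturing cartilage, was a minor member. Its FPKM was 2.37, 2.89 and 1.80 in the control libraries and 1.73, 1.76 and 1.75 in the libraries labelled cKO. The cKO libraries were all lower and nearly equal, but control replicate 3 exceeded the highest of them by less than the control libraries differed among themselves. The log2 difference was -0.27 (standard error 0.12, adjusted p = 0.382 from limma), and it was -0.40 without control replicate 3 and -0.16 without control replicate 2. *Sp7* and *Runx3* were the 2 of 8 tested factors whose cKO values all lay below the controls, a pattern seen in 11.8% of tested rows. The reverse pattern, with all cKO values above the controls, held for 0 of the 8 and for 6.51% of tested rows.

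*Runx1*, the RUNX factor of blood stem cells that is also expressed in skeletal progenitors, overlapped *Runx2* in level here. The ratio of *Runx1* to *Runx2* was 0.91, 1.13 and 1.22 in the control libraries and 1.66, 1.08 and 1.31 in the cKO libraries. The FPKM of *Runx1* was 12.58, 16.58 and 14.72 in the control libraries and 18.93, 13.40 and 14.38 in the libraries labelled cKO. The highest value, in cKO replicate 1, set the sign of the difference. The log2 difference was 0.08 (standard error 0.15, 95% interval -0.27 to 0.43, adjusted p = 0.832 from limma), and it was -0.06 without cKO replicate 1 and -0.02 without control replicate 1. Gene-level values do not separate transcripts from the 2 start sites of *Runx1*. Blood cells carry *Runx1* and *Runx3* too. Of the blood markers listed, *Ptprc*, the pan-leukocyte antigen CD45, had an FPKM of 0.07 to 0.18. The summed FPKM of 8 macrophage and myeloid markers was 35.91 to 96.61 in control and 48.7 to 81.21 in cKO libraries, most of it *Lyz2*. That of 5 lymphoid and megakaryocyte markers with a row was 4.2 to 7.63 and 4.64 to 8, most of it *Pf4*, with *Nkg7* at 0 in 5 of the 6 libraries. The part of such cells in the RUNX values was not tested.

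Within the RUNX family, the *Runx1* share of the summed RUNX FPKM was 43.6%, 48.5% and 51.5% in the control libraries and 59.1%, 48.7% and 53.0% in the cKO libraries. *Runx2* made up 42.2% to 48.1% in control and 35.5% to 45.0% in cKO libraries. *Runx3* contributed 6.30% to 8.46% and 5.40% to 6.46%. The shares of all 3 factors overlapped between the groups. *Cbfb*, the shared partner, lies on chromosome 8 from 105170674 to 105217989 on the plus strand. Its FPKM was 70.82, 76.50 and 79.40 in control and 80.66, 68.45 and 66.21 in cKO libraries, a log2 difference of -0.08 (standard error 0.09, adjusted p = 0.733 from limma). The difference was -0.16 without cKO replicate 1, -0.12 without control replicate 1, and -0.05, -0.04 and -0.02 without cKO replicate 2, control replicate 3 and cKO replicate 3. Its level was 2.24 to 2.78 times the RUNX sum in control libraries and 2.44 to 2.52 times in cKO libraries, so the partner transcript exceeded that of the 3 RUNX genes combined in every library.

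The ratio of *Sp7* to *Runx2* was 1.27, 1.15 and 1.09 in the control libraries and 1.09, 0.84 and 0.94 in the cKO libraries. Control replicate 3 and cKO replicate 1 were almost equal in this ratio, and cKO replicates 2 and 3 lay below all controls. *Runx2* and *Sp7* thus both had lower means in the libraries labelled cKO, and *Sp7* was the lower of the pair relative to its controls in each of these libraries. Relative to the control mean on the log2(FPKM + 1) scale, *Sp7* stood at -0.32, -0.56 and -0.57 in cKO replicates 1, 2 and 3, where *Runx2* stood at -0.23, -0.12 and -0.28.

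**Figure D2:**
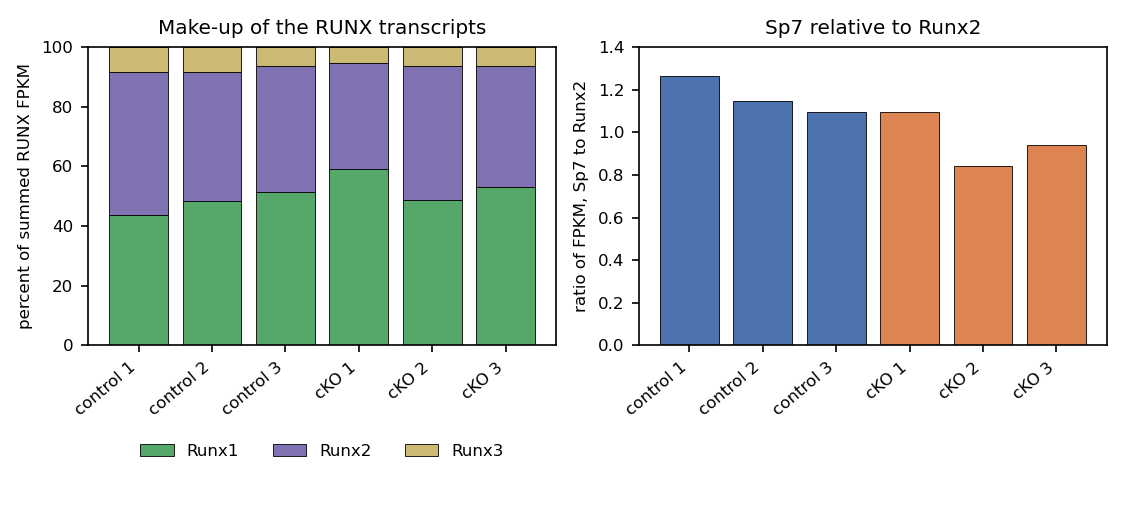
Left, the percent of the summed RUNX FPKM contributed by *Runx1*, *Runx2* and *Runx3* in each library, as stacked bars. Right, the ratio of *Sp7* FPKM to *Runx2* FPKM in each library (blue, control; orange, cKO), which is 1.09 to 1.27 in control and 0.84 to 1.09 in cKO libraries.

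*Twist1* and *Twist2*, the antagonists of RUNX2 in early mesenchyme, were expressed at very unequal levels. *Twist1*, on chromosome 12 from 33957671 to 33959829, had an FPKM of 70.38, 83.31 and 89.79 in the control libraries and of 70.33, 74.32 and 67.89 in the libraries labelled cKO. Control replicate 1 lay among the cKO values, and the log2 difference was -0.19 (standard error 0.10, 95% interval -0.42 to 0.05, adjusted p = 0.455 from limma). It was -0.29 without control replicate 1 (unadjusted p = 0.0129 and adjusted p = 0.609 from limma) and -0.11 without control replicate 3. *Twist2*, on chromosome 1 from 91801461 to 91848028, had an FPKM of 8.42, 7.42 and 13.88 in control and of 7.98, 8.47 and 8.30 in cKO libraries. Control replicate 3 alone was high. The log2 difference of *Twist2* was -0.19 (standard error 0.20, adjusted p = 0.688 from limma) and 0.05 without that library. *Twist1* exceeded *Twist2* by 6.47 to 11.2 times in control and by 8.18 to 8.81 times in cKO libraries. The balance of *Twist1* to *Runx2* was 5.07 to 7.45 in control and 6.003 to 6.18 in cKO libraries, which lay within the control range.

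TWIST proteins bind DNA as dimers with E proteins, and ID proteins compete for the same partners. Of the 8 listed genes of this group with a row, 7 were tested. An unadjusted p under 0.05 in either direction was found for 0 of the 7, beside 13.1% of all tested rows. Their median log2 difference was -0.01, beside a median of -0.02 over all tested rows. *Id3*, the most abundant, had a mean FPKM of 300.9 ± 35.7 (SD, n = 3) in control and 340.1 ± 77.2 (SD, n = 3) in cKO libraries. *Id1* and *Id2* had control means of 64.8 ± 7.30 (SD, n = 3) and 47.8 ± 9.83 (SD, n = 3).

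*Zfp521* lies on chromosome 18 from 13687013 to 13972787 on the minus strand. Its FPKM was 20.72, 17.87 and 21.53 in control and 18.28, 23.12 and 21.52 in the libraries labelled cKO, and the groups overlapped. The log2 difference was 0.06 (standard error 0.11, 95% interval -0.20 to 0.32, adjusted p = 0.822 from limma), and it took the other sign, at -0.02 and -0.01, without control replicate 2 and without cKO replicate 2. The ratio of *Zfp521* to *Runx2* was 1.21 to 1.79 in control and 1.61 to 1.96 in cKO libraries. ZFP521 also binds EBF factors, and ZFP423 is its closest relative. Of the 5 listed genes *Zfp423*, *Ebf1*, *Ebf2*, *Ebf3* and *Ebf4*, all 5 were tested and 1, *Ebf2*, had an unadjusted p under 0.05, beside 13.1% of all tested rows. *Ebf2*, a factor of skeletal and brown fat progenitors, had an FPKM of 0.91, 1.68 and 1.46 in control and 1.91, 2.06 and 2.5 in cKO libraries (log2 difference 0.44, standard error 0.14, adjusted p = 0.312 from limma). *Ebf1*, *Ebf3* and *Zfp423* had log2 differences of 0.29, 0.22 and 0.15 with overlapping groups.

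**Figure D3:**
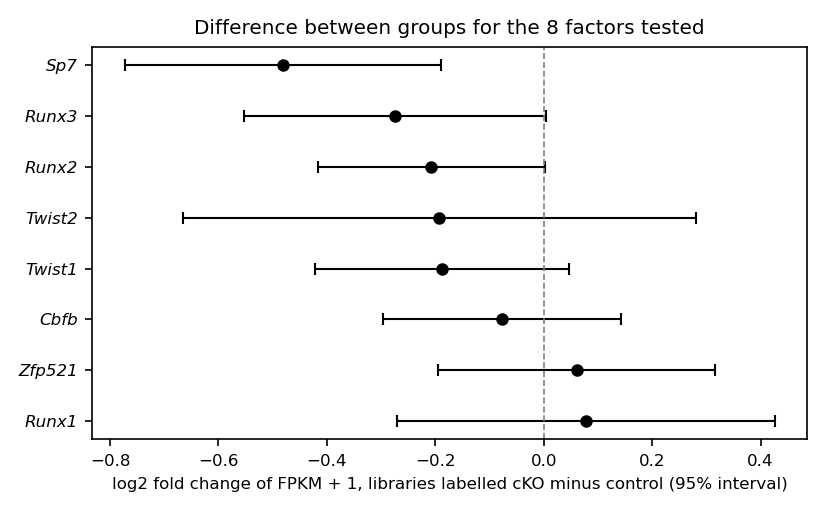
Difference between libraries labelled cKO and control on the log2(FPKM + 1) scale (x axis) for the 8 tested transcription factors, with 95% intervals from limma that are not corrected for the number of genes. The interval of *Sp7*, -0.77 to -0.19, leaves out 0, and those of the other 7 factors include it.

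*Hey1*, on chromosome 3 from 8663359 to 8667256 on the minus strand, was weakly expressed, and the number of reads behind its values is unknown. Control replicates 1, 2 and 3 held 0.08, 0.22 and 0.35 FPKM, and cKO replicates 1, 2 and 3 held 0.27, 0.86 and 0.90. The cKO replicates 2 and 3 were above all controls, and cKO replicate 1 lay among them. The mean was 0.217 ± 0.135 (SD, n = 3) in control and 0.677 ± 0.353 (SD, n = 3) in cKO libraries. An exact two-sided permutation test on the log2(FPKM + 1) values gave p = 0.2, where the smallest p that 3 against 3 libraries allow is 0.1. Fitted without a filter over 16990 rows, the log2 difference of *Hey1* was 0.45 (standard error 0.18, adjusted p = 0.426 from limma) with a pseudocount of 1 and 1.26 (standard error 0.51, adjusted p = 0.525 from limma) with a pseudocount of 0.1. Endothelial cells are a common source of *Hey1*. The 7 endothelial markers summed to an FPKM of 7.64 to 10.23 in control and 6.52 to 14.38 in cKO libraries, most of it *Erg*, and *Pecam1* had 0.24 to 0.73. The part of such cells in the *Hey1* values was not tested.

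Of the 14 listed genes of the Notch pathway, through which HEY genes are induced, 7 passed the filter, 6 of them with a log2 difference above 0, and the median was 0.28, beside -0.02 over all tested rows. An unadjusted p under 0.05 was found for 2 of the 7, both with higher values in cKO libraries. In that direction, 5.37% of all tested rows had such a p. The list was chosen with earlier results of these data known, so these counts and the median are not independent evidence. *Rbpj*, the DNA-binding protein of Notch signaling, had an FPKM of 16.37, 17.66 and 16.37 in control and 19.14, 23.56 and 24.34 in cKO libraries, without overlap (log2 difference 0.38, standard error 0.10, adjusted p = 0.312 from limma). The ligand *Jag1* had 4.45, 4.64 and 5.94 in control and 5.67, 8.76 and 10.61 in cKO libraries. *Hes1*, a Notch target, had 13.78, 18.34 and 18.54 in control and 18.66, 19.90 and 23.42 in cKO libraries, also without overlap but with an adjusted p of 0.418 from limma. *Notch2*, the most abundant receptor, had control and cKO means of 9.28 ± 0.94 (SD, n = 3) and 8.84 ± 0.79 (SD, n = 3). The *Hey1* relatives *Hey2* and *Heyl* did not pass the filter. *Hey2* had an FPKM of 0.02 to 0.09 in control and 0.18 to 0.37 in cKO libraries, and *Heyl* had 0.22 to 0.44 and 0.30 to 0.90. Like *Hey1*, the genes *Jag1*, *Rbpj*, *Hes1*, *Hey2* and *Heyl* were lower in cKO replicate 1 than in cKO replicates 2 and 3. The listed genes *Notch2* (9.75 against 8.40 and 8.38) and *Jag2* (0.23 against 0.17 and 0.19) had the opposite order. The share of all rows with either order was not worked out.

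**Figure D4:**
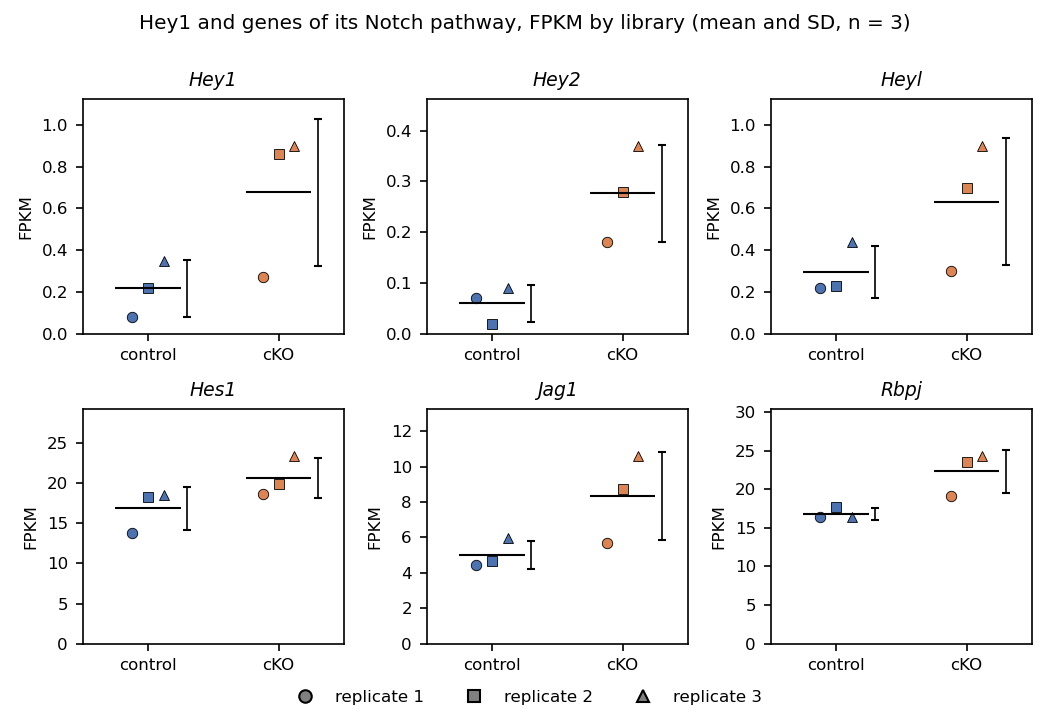
FPKM (y axes, from 0) of *Hey1*, its relatives *Hey2* and *Heyl*, the Notch target *Hes1*, the ligand *Jag1* and the DNA-binding protein *Rbpj* in each library, with the group mean and SD. For *Hey2* (which did not pass the filter), *Hes1* and *Rbpj*, the libraries labelled cKO lie above all controls, as in 6.51% of tested rows. For *Hey1*, *Heyl* and *Jag1*, cKO replicate 1 lies within the control range.

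The genes that RUNX2 and SP7 activate were read beside the factors. Of 12 listed targets, 10 passed the filter, and *Ifitm5* did so only through its control values and is left out of the count. Of the other 9, 4 (*Ibsp*, *Alpl*, *Bglap* and *Pth1r*) had an unadjusted p under 0.05 with lower values in cKO libraries, beside 7.76% of all tested rows, and 0 with higher values, beside 5.37%. The median log2 difference of these 9 was -0.24, beside -0.02 over all tested rows. Osteogenic and adipogenic genes that differed in these same libraries have been displayed before as a heatmap, so the direction of such genes here is not independent evidence. *Ibsp*, bone sialoprotein, had an FPKM of 123.86, 61.90 and 48.79 in control and of 34.64, 26.17 and 27.65 in cKO libraries (log2 difference -1.27, standard error 0.32, adjusted p = 0.312 from limma). *Ifitm5*, a membrane protein of mineralizing osteoblasts, had 4.08, 2.06 and 1.28 in control and 0.63, 0.64 and 0.50 in cKO libraries. For both *Ibsp* and *Ifitm5*, control replicate 1 was the highest and control replicate 3 the lowest control, the same order as for *Sp7*. Of the other listed targets, *Alpl*, *Pth1r*, *Col1a1* and *Dmp1* had this order, and *Bglap*, *Bglap2*, *Spp1*, *Mmp13*, *Col1a2* and *Phex* did not. The share of all rows with this order was not worked out.
*Alpl*, the alkaline phosphatase that starts mineralization, had 36.44, 33.08 and 25.15 in control and 23.09, 22.65 and 22.03 in cKO libraries (log2 difference -0.45, standard error 0.13, adjusted p = 0.312 from limma). *Pth1r*, the parathyroid hormone receptor, had means of 67.2 ± 8.09 (SD, n = 3) and 56.6 ± 3.03 (SD, n = 3). *Bglap*, osteocalcin, had 8.61, 2.52 and 5.16 in control and 1.20, 1.56 and 2.38 in cKO libraries. Its near-identical neighbour *Bglap2* overlapped between the groups, and reads may be split between these 2 copies.
The most abundant targets had overlapping groups. *Col1a1* and *Col1a2* differed by -0.01 and 0.04 on the log2 scale, and *Spp1*, osteopontin, by 0.12 (95% interval -0.27 to 0.52). *Mmp13*, the collagenase, had a log2 difference of 0.15 (95% interval -0.45 to 0.75). *Dmp1* and *Phex*, markers of later osteocytes, did not pass the filter. *Dmp1* had an FPKM of 2.31, 0.58 and 0.38 in control and of 0.06, 9.32 and 0.21 in cKO libraries, and *Phex* had 0.14, 0.20 and 0.15 and then 0.13, 0.57 and 0.04. Their cKO means were the higher ones, through cKO replicate 2 alone. In bulk RNA, fewer cells that express *Sp7* and its targets and less RNA per cell cannot be told apart.

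**Figure D5:**
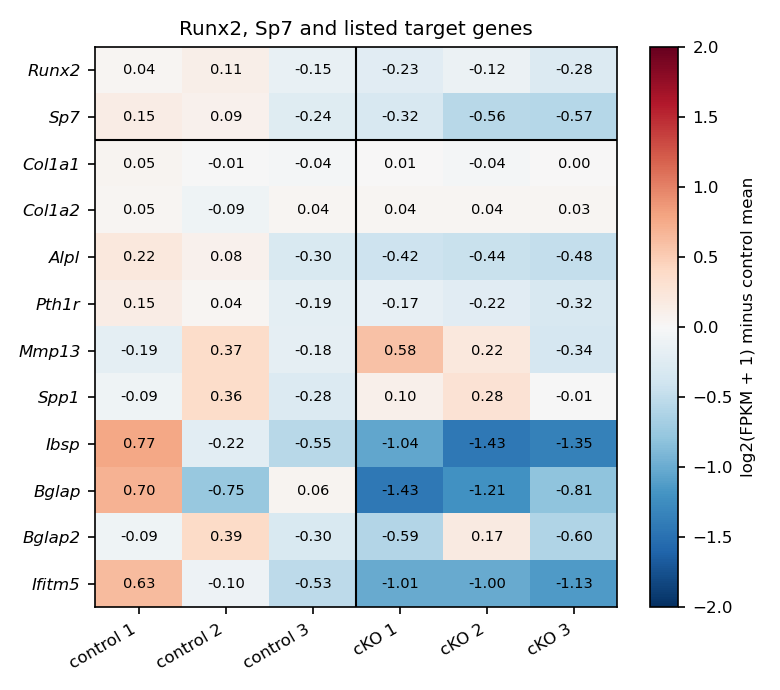
Log2(FPKM + 1) minus the mean of the control libraries (colour and printed value) for *Runx2*, *Sp7* and 10 listed target genes in the 6 libraries (*Ifitm5* passed the filter only through its control values). *Sp7*, *Alpl*, *Ibsp*, *Bglap* and *Ifitm5* are below every control library in the libraries labelled cKO, a pattern seen in 11.8% of tested rows. *Col1a1* and *Col1a2* stay within 0.09 of the control mean in every library.

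Of 18 listed cofactors and partners of RUNX2, all 18 were tested, and an unadjusted p under 0.05 was found for 2 with higher and 1 with lower values in cKO libraries, 3 in all, beside 13.1% of all tested rows, so the share was near the background. *Atf4*, which cooperates with RUNX2 and also directs the amino acid stress response, had an FPKM of 175.08, 171.34 and 186.85 in control and 200.41, 279.70 and 270.92 in cKO libraries. *Tle1*, a corepressor, had 10.44, 11.90 and 10.40 in control and 12.49, 13.27 and 15.51 in cKO libraries. Neither passed after adjustment (adjusted p = 0.312 for each, from limma). The median over the 18 genes was 0.02. The corepressor enzyme *Hdac3*, at 49.41 to 50.14 in control and 46.17 to 50.88 in cKO libraries, and the coactivator *Yap1*, at 45.4 ± 3.92 (SD, n = 3) and 43.5 ± 3.85 (SD, n = 3), were abundant with overlapping groups.

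Factors of alternative fates were listed as well. Of 8, 7 were tested, 2 had an unadjusted p under 0.05 with higher and 1 with lower values in cKO libraries, beside 5.37% and 7.76% of all tested rows, and the median log2 difference was 0.18, beside -0.02 over all tested rows. *Pparg*, the regulator of adipocyte commitment, had an FPKM of 2.53, 2.40 and 3.01 in control and of 3.45, 4.13 and 3.39 in cKO libraries (log2 difference 0.35, standard error 0.09, adjusted p = 0.312 from limma). *Scx*, of tendon progenitors, had control and cKO means of 27.6 ± 2.40 (SD, n = 3) and 32.1 ± 2.35 (SD, n = 3), and *Sox6*, of cartilage, had 2.30 ± 0.44 (SD, n = 3) and 1.64 ± 0.14 (SD, n = 3). The cartilage regulator *Sox9* overlapped between the groups, with a log2 difference of 0.18.

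Some markers of other cell types also had an unadjusted p under 0.05, beside 5.37% of all tested rows with higher and 7.76% with lower values in cKO libraries. Of 4 epithelial markers, 3 passed the filter, *Epcam* only through the cKO libraries, and both *Krt8* and *Krt18* had an unadjusted p under 0.05 with higher values in cKO libraries. The summed FPKM of the 4 epithelial markers was 0.46 to 13.2 in control and 15.94 to 42.51 in cKO libraries, with *Krt18* the most abundant and *Epcam* at 0 in control replicate 1. All 5 cartilage markers were tested, and *Comp*, *Acan* and *Col9a1* had an unadjusted p under 0.05, with summed FPKM of 99.22 to 168.44 in control and 153.74 to 178.88 in cKO libraries. Of the 13 osteoblast lineage markers, 6 had an unadjusted p under 0.05 with lower values and 1, *Postn*, with higher values. Of the 6, 3 (*Ibsp*, *Bglap* and *Alpl*) were counted above among the targets, and the others were *Msx1*, *Msx2* and *Prrx1*. The lineage sum, dominated by collagen, was 18642.18 to 19349.24 in control and 19257.11 to 19616.01 in cKO libraries. Of 8 myeloid markers, *Laptm5* had an unadjusted p under 0.05 with higher values. None of the tested endothelial, lymphoid and megakaryocyte or skeletal muscle markers did in either direction. Skeletal muscle markers summed to 29.81 to 55.04 and 40.6 to 46.97. The part of these cells in the values of *Sp7*, *Runx2* and *Runx3* was not tested.

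Over the 6 libraries, the factors varied together in one set and apart in another. These correlations describe libraries of both groups and are not tests. *Runx2*, *Runx3* and *Sp7* had Pearson correlations of their log2 values of 0.93 (*Runx2* and *Runx3*), 0.84 (*Runx2* and *Sp7*) and 0.85 (*Runx3* and *Sp7*). *Runx1* was near 0 against *Runx3* and *Sp7* (-0.02 and -0.02) and reached 0.71 with *Cbfb*. *Hey1*, which did not pass the filter, ran opposite to *Sp7*, at -0.92, and *Zfp521* opposite to *Runx1*, at -0.79. *Twist1* and *Twist2* had 0.64. Among all tested genes, those most like *Sp7* over the 6 libraries were *Gm34298*, *Wdr48* and *Nubp2* (correlations 0.999, 0.995 and 0.994). For *Runx2* they were *Nphp4*, *Tubd1* and *Mesd* (0.998, 0.995 and 0.990), and for *Runx3* they were *Btg2*, *Tbl3* and *Mbd5* (0.990, 0.986 and 0.985). *Twist1* was closest to *Gm14322*, *Zfp513* and *Ccnt1* (0.991, 0.985 and 0.979), and *Cbfb* to *Rab3il1*, *Gopc* and *Mcfd2* (0.999, 0.990 and 0.986). For *Runx1* the closest were *Phlda1*, *Tmbim6* and *C1qtnf6*, for *Twist2* they were *Zfp90*, *Mthfsd* and *Acyp2*, and for *Zfp521* they were *Endog*, *Lrpap1* and *Pex6*, at 0.971 or above. These genes were picked as the highest of 11590 correlations over only 6 libraries.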

How the data were processed

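RNA from 3 control and 3 cKO libraries was sequenced as paired-end reads. The authors mapped the reads with HISAT2, to the mouse transcriptome by the study's text. The submitters' processing notes name the genome build GRCm38. They deposited FPKM values rounded to 2 decimals, 1 per row and library. Rows are named by gene symbol, and 2 of them repeat the symbol of another row. The program that computed FPKM and its annotation are not given in the sources used here. The study names DESeq for normalization, which FPKM values do not carry. FPKM values are not counts, so no count test was run, and the depth behind each value is unknown. FPKM sums per library were 573307 to 606428.

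Group differences in log2(FPKM + 1) were fitted by limma 3.58.1 under R 4.3.3 (eBayes with no trend, Benjamini-Hochberg adjustment) over the 11590 rows that reached 1 FPKM in 3 or more libraries. The study likewise used a moderated test. The fit was checked on simulated data. All columns were used. Symbols were placed with GENCODE M21. The members and lists were chosen with earlier results of these data known. The text names the 9 factors, *Nell2*, listed genes with an unadjusted p under 0.05 or among the 3 most abundant of their list, the 3 genes most correlated with each tested factor, and some further listed genes chosen after their values were seen. A listed gene under that rule is not reported here. Alternatives were other pseudocounts, filters, scalings, a variance trend, a replicate block, a covariate for Y-linked genes, and fits that left out 1 library each.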

Additional observations from a re-analysis of the deposited data

How the results depend on the processing

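At an adjusted p under 0.05, limma called 0 genes, as it did with pseudocounts of 0.1 and 0.5, no filter, a filter on mean FPKM, upper-quartile scaling, quantile normalisation, a variance trend, the replicate block and the Y-linked covariate. Fits that each left out 1 library called 0 to 324, with 324 without cKO replicate 1 and 2 without control replicate 3. The number with an unadjusted p under 0.05, 1521, ran from 852 to 2461 with 1 library left out. Of the transcription factors, 1 (*Sp7*) had an unadjusted p under 0.05. The number was 2 without a filter and 2 with a variance trend (*Runx2* added in both), 3 with the replicate block (*Runx2* and *Runx3* added), and 1 to 3 with 1 library left out, *Sp7* among them each time (with *Twist1* without control replicate 1, *Runx2* and *Runx3* without control replicate 3, and *Runx2* without cKO replicate 2). The causes were not tested. The labels do not say whether same-numbered libraries share more than a number. The correlations of their deviations were 0.03, -0.17 and 0.21 for replicates 1, 2 and 3. Those of differently numbered pairs ran from -0.27 to 0.28, so these values cannot decide whether the libraries were paired. The log2 differences kept their sign in 115 of 120 refits of the 8 factors. With 1 library left out, *Runx1* ran from -0.0624 to 0.172, *Twist2* from -0.356 to 0.0543 and *Zfp521* from -0.0159 to 0.152. *Sp7* ran from -0.60 to -0.41 over all 15 alternatives, with an adjusted p of 0.0825 to 0.674. FPKM hides depth, so the counting error of low values such as those of *Hey1* is unknown.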
